A study of Mus musculus with 33 samples.

Results

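The genes described here are the mouse zinc finger genes whose symbol is Zfp followed by a number, measured in single germinal vesicle oocytes of *Nlrp5* mutant mice. *Nlrp5* encodes a maternal protein of the subcortical complex of the oocyte. Of 365 such genes in the deposited table (*Zfp57* and *Zfp36* were left out beforehand), the 265 with a mean over all 33 oocytes of at least 2 CPM (counts scaled to the total of the library) are the members, and 12914 genes of any kind reached that level. The members were thus selected on the mean level over all oocytes, which is given as a description only. The genes nearest the limit were *Zfp219* (1.80 CPM), *Zfp871* (1.81 CPM) and *Zfp987* (1.86 CPM) just below it, and *Zfp945* (2.03 CPM), *Zfp42* (2.05 CPM) and *Zfp446* (2.05 CPM) just above it.

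The oocytes came from C57BL6/Babr females aged 3 weeks. They were wild type (*Nlrp5* +/+), heterozygous (*Nlrp5* +/-) or homozygous (*Nlrp5* -/-) for a small deletion with a premature stop codon, made with CRISPR/Cas9 and kept as a single line. The +/- and -/- females were littermates, whereas the +/+ females usually came from the colony in which the line was made. No oocyte received any treatment other than the collagenase digestion used to free it from the ovary. The nucleus of such an oocyte passes from a non-surrounded nucleolus (NSN) stage to a surrounded nucleolus (SN) stage, in which chromatin rings the nucleolus and transcription largely stops. There were 4 +/+, 9 +/- and 4 -/- oocytes at NSN, and 6 +/+, 7 +/- and 2 -/- oocytes at SN. The remaining -/- oocyte, oocyte 15, has no stage. The numbers of staged +/- oocytes were read from the study's staging heatmap and differ from those its text gives. The stage itself had been assigned by the study from the expression of marker genes, among them the members *Zfp707*, *Zfp771*, *Zfp869*, *Zfp622* and *Zfp64*.

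The libraries held between 4225037 and 15579217 counts, and the SN -/- oocytes had 5748166 and 10625944. No index pair was shared between libraries, and each of the 10 first index sequences occurred with 1 genotype only. The labels name no preparation batch, so whether genotypes were prepared together is not known here. The normalised count of *Nlrp5* was 18245 ± 8249 in +/+ NSN oocytes (SD, n = 4) and 2112 ± 549 in -/- NSN oocytes (n = 4). At SN it was 11994 ± 1713 (n = 6) and 2237 ± 112 (n = 2). The summed oocyte markers, all 10 of them above the level limit, had means of 24034 CPM in +/+ NSN and 25071 CPM in -/- NSN oocytes. Since the labels name no mouse, the oocytes of a genotype and stage count as 1 sample and no test was made. SDs describe the spread between oocytes only, and no difference between groups has a replicate check. A gene is called lower or higher when the mean normalised counts of the groups, with 1 added, differed at least 2-fold (a log2 fold change of -1 or 1).

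Most Zfp genes encode C2H2 zinc finger proteins. Each finger is a short loop held by a zinc ion between a pair of cysteines and a pair of histidines, and successive fingers read neighbouring bases of DNA. Many carry in addition a KRAB domain at their start, which recruits TRIM28 (KAP1) and with it the histone methyltransferase SETDB1 to silence transposable elements and, for a few of these proteins, imprinted loci. KRAB zinc finger genes have multiplied by tandem duplication and lie in clusters, and many are transcribed in the growing oocyte.

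A KRAB domain was found in the annotated proteins of 161 members (60.8%), and in 68% of the 100 Zfp genes below the limit. The median number of C2H2 patterns per protein was 11 over the members, with a range of 0 to 36, and was 12 with KRAB and 7 without. Parts of 5 KRAB members named below for their fold changes are shown to let their common build be seen. For each, a stretch of the KRAB coding sequence is given, in which capitals mark the codons of the Asp-Val pair at its start and of the Met-Leu-Glu at its end, and then 1 finger unit with its linker, in which capitals mark the codons of the zinc-binding cysteines and histidines. They are from GENCODE M39 transcripts, on the coding strand.
*Zfp141* KRAB stretch, coding bases 64 to 147: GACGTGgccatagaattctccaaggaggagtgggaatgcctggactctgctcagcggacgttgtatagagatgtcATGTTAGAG
*Zfp141* finger unit, coding bases 1234 to 1317: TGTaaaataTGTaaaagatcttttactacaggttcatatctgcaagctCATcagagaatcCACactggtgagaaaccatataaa
*Zfp229* KRAB stretch, coding bases 49 to 132: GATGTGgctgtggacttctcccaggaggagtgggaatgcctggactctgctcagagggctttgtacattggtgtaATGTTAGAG
*Zfp229* finger unit, coding bases 940 to 1023: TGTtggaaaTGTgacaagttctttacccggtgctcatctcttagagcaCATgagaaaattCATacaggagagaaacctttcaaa
*Zfp160* KRAB stretch, coding bases 34 to 117: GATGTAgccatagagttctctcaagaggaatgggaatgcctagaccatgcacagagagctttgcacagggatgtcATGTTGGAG
*Zfp160* finger unit, coding bases 610 to 693: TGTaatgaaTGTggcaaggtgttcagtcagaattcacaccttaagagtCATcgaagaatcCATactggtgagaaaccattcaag
*Zfp97* KRAB stretch, coding bases 49 to 132: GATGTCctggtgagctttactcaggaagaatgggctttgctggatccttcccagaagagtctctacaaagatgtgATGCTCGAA
*Zfp97* finger unit, coding bases 478 to 561: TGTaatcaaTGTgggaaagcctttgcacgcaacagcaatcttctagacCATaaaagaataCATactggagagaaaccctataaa
*Zfp758* KRAB stretch, coding bases 334 to 417: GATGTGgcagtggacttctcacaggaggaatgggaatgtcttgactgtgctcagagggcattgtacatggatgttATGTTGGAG
*Zfp758* finger unit, coding bases 1072 to 1155: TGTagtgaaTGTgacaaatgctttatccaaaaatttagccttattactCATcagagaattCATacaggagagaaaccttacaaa

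Over the 10 pairs of these genes, the KRAB stretches had 57.1% to 86.9% of their bases in common (median 77.4%) and the finger units 61.9% to 72.6% (median 63.1%). Such likeness bears on the counts, since reads from near-identical stretches can be assigned to either gene. The share of the 31-base words of a gene's transcripts that also occur in transcripts of other genes had a median of 2.22% over the members. It was 10% or more in 59 members and over 50% in 20, and the counts of these 20 are uncertain. *Zfp97* (88.5%), *Zfp708* (94.5%) and *Zfp91* (99.1%) are among them.

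The members were moderately expressed. Their mean level had a median of 17.3 CPM, against 26 CPM over all 12914 genes, and reached 609 CPM. Of the 265 members, 202 had a count in every one of the 33 oocytes. Per kb of exon, the median was 20.3 normalised counts, against 37.1 over the 12841 genes with a length. The highest levels per kb were those of *Zfp296* (1020), which is known from pluripotent cells, *Zfp957* (869), *Zfp655* (518), *Zfp958* (498) and *Zfp108* (423), followed by *Zfp750* (420), *Zfp212* (411), *Zfp345* (339), *Zfp830* (335) and *Zfp706* (335). The normalised count of *Zfp655* was 3017, 4003, 5244 and 5759 in the +/+ NSN oocytes and 3032 and 4394 in the -/- SN oocytes. Of the *Zfp655* values in +/+ SN oocytes, the lowest was 4075 and the highest 6518, so these groups overlapped.

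Members together took 1.18% ± 0.0889 of the counts in +/+ NSN oocytes (SD, n = 4), 1.09% ± 0.137 in +/- NSN oocytes (n = 9) and 1.13% ± 0.129 in -/- NSN oocytes (n = 4). At SN the share was 1.10% ± 0.110 in +/+ (n = 6, range 0.917% to 1.21%) and 1.10% ± 0.0951 in +/- oocytes (n = 7). The -/- SN oocytes had 0.884% and 0.946%, the second of which lay within the +/+ range. Within the members, the mean of log2(normalised count + 1) over the KRAB genes was 6.66 ± 0.235 in +/+ SN oocytes, with a range of 6.26 to 6.96. It was 5.75 in SN -/- oocyte 7 and 6.17 in oocyte 31, both below the lowest +/+ oocyte. Over the 104 members without KRAB the mean was 6.84 ± 0.0574 in +/+ SN oocytes and 6.98 and 6.80 in oocytes 7 and 31. At NSN the KRAB means were 7.02 ± 0.268 in +/+, 6.79 ± 0.406 in +/- and 6.73 ± 0.208 in -/- oocytes, and the genotypes overlapped. The split by KRAB was made after the counts over all members had been seen.

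**Figure D1:**
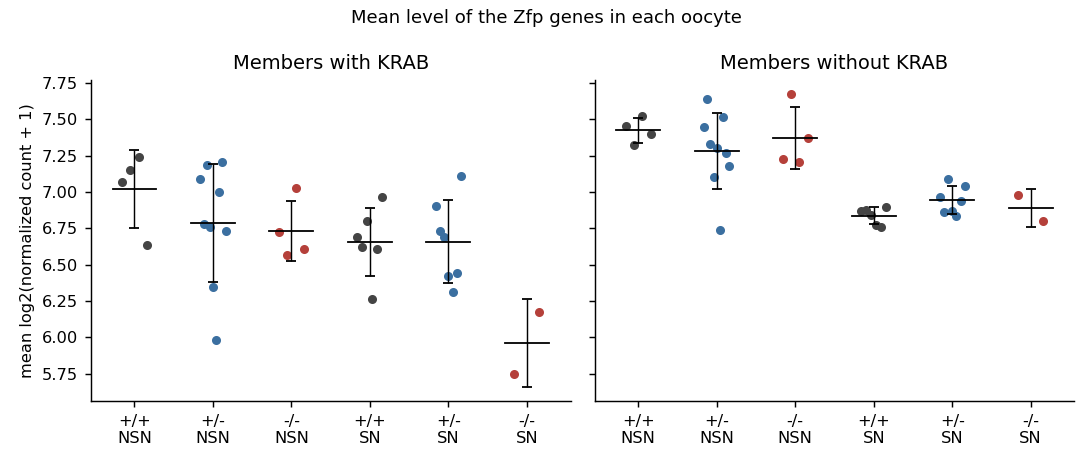
Mean of log2(normalised count + 1) over the KRAB members and over the members without KRAB in each oocyte, by genotype and stage; points are oocytes. The SN -/- oocytes lie at 5.75 and 6.17 for KRAB members, below the +/+ SN range of 6.26 to 6.96, and at 6.98 and 6.80 for the others.

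The first comparison asks whether oocytes without NLRP5 differ from wild type in the expression of these genes at the NSN stage. Among members, 22 were lower and 7 higher in -/- oocytes (8.30% and 2.64%). Of all genes 2.69% were lower and 3.97% higher, so that lower calls were more frequent among the members and higher calls less frequent. The median log2 fold change was -0.11 over the members, whereas that over all genes was within 0.01 of 0. The same median was -0.11 in +/- against +/+ oocytes, and in -/- against +/- oocytes it was 0.03. Of the 172 members with a mean of at least 10 CPM, 6 were lower (3.49%) and 1 higher, against 1.16% and 1.3% of the 9120 genes of any kind at that level. Most of the lower members at NSN were thus in the low range of expression. Of the KRAB members 17 of 161 were lower (10.6%), and of the others 5 of 104 (4.81%). At 10 CPM or more this order turned, with 3 of 97 KRAB members (3.09%) and 3 of 75 others (4%) lower.

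Among members with a mean normalised count of at least 100, the lowest in -/- NSN oocytes relative to +/+ were *Zfp141*, *Zfp410*, *Zfp512*, *Zfp229* and *Zfp160*. *Zfp141*, a KRAB gene on the minus strand of chromosome 7 (GRCm38, chr7:42473386-42505740), had 97.4, 112, 138 and 380 normalised counts in the +/+ NSN oocytes. In the -/- NSN oocytes it had 11.5, 13.2, 27.7 and 59.9, all below the +/+ values. The log2 fold change was -2.65, the means being 182 ± 133 (SD, n = 4) and 28.1 ± 22.4 (n = 4), and it was -2.01 without +/+ oocyte 79, which had the value of 380, and -3.31 without -/- oocyte 29. In +/- NSN oocytes the lowest value was 73.6, the median 144 and the highest 264, above every -/- oocyte.

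*Zfp410* (chr12:84316852-84343723, plus strand) encodes a factor without KRAB that is known as an activator of *Chd4*, a subunit gene of the NuRD remodelling complex. It had 169, 178, 195 and 236 normalised counts in +/+ NSN oocytes and 37.9, 51.8, 53 and 86.7 in -/- NSN oocytes, without overlap. Its log2 fold change was -1.75 at NSN. *Chd4* itself had mean normalised counts of 895 in +/+ and 616 in -/- NSN oocytes, a log2 fold change of -0.54.

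*Zfp512* (chr5:31452431-31481754, plus strand) has no KRAB domain and encodes a protein known to bind pericentric heterochromatin. Its normalised counts were 105, 162, 176 and 192 in +/+ and 31.8, 53.4, 59.0 and 75.7 in -/- NSN oocytes, a log2 fold change of -1.51. *Zfp512* did not overlap between +/+ and -/-, but the +/- NSN oocytes reached down to 27.8 (median 132, highest 263). *Zfp229* (chr17:21730795-21769342, plus strand) had 189, 436, 442 and 466 in +/+ and 98.0, 112, 168 and 183 in -/- NSN oocytes (log2 fold change -1.44). *Zfp160* (chr17:21008903-21043070, plus strand) had 157, 388, 402 and 479 in +/+ and 50.7, 82.4, 148 and 291 in -/- NSN oocytes (log2 fold change -1.31, and -1.92 without oocyte 29), and these overlapped. *Zfp229* and *Zfp160* are KRAB genes of the same cluster.

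In the other direction, the highest in -/- NSN oocytes among members with a mean normalised count of at least 100 were *Zfp937*, *Zfp707*, *Zfp212*, *Zfp553* and *Zfp367*, with log2 fold changes of 1.02, 0.85, 0.79, 0.74 and 0.68. *Zfp212* had 542, 774, 953 and 1297 normalised counts in +/+ and 1398, 1497, 1504 and 1785 in -/- NSN oocytes, with no overlap. The +/- NSN oocytes had 673 to 1755 counts of *Zfp212* and overlapped with the -/- oocytes. *Zfp553* had 312, 389, 461 and 498 in +/+ and 641, 675, 694 and 767 in -/- NSN oocytes, also with no overlap. *Zfp937* had 16.4, 35.7, 91.7 and 174 in +/+ and 59.7, 141, 172 and 275 in -/- NSN oocytes and overlapped. Without the limit of 100 the member with the greatest value in this direction was *Zfp266*, chosen for mention after its values were seen. Its log2 fold change of 5.16 rests on 79.5 and 83.8 normalised counts in 2 -/- oocytes, the other -/- oocytes being at 0 and the +/+ oocytes at 0, 0, 0 and 0.689.

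Some -/- NSN oocytes carried more RNA on markers of granulosa cells, the somatic neighbours of the oocyte in its follicle. The summed level of the 17 markers, 11 of which reached a mean of 2 CPM, was 281 to 476 CPM in +/+ and 294 to 864 CPM in -/- NSN oocytes. Between 5 and 8 of the markers were at 0 in a +/+ NSN oocyte and between 0 and 3 in a -/- NSN oocyte. *Inha*, the inhibin alpha subunit, had mean normalised counts of 5.31 in +/+ and 387 in -/- NSN oocytes. Without the -/- oocytes 13 and 14, which had the most of these counts, 30 members were lower (11.3%), 20 of them with KRAB, against 4.77% of all genes. At SN the sums were 319 to 412 CPM in +/+ and 336 and 436 CPM in -/- oocytes, but they were mostly *Serpine2*, *Cyp19a1* and *Nr5a2*, which were high in every group. Marker by marker, 13 of the 17 were at least 2-fold higher in -/- oocytes at NSN and 10 at SN, and none was lower at either. At SN *Inha* had means of 15.3 in +/+ and 274 in -/- oocytes, *Hsd17b1* 3.82 and 58.6, and *Gja1* 9.69 and 67.5. Between 3 and 9 of the markers were at 0 in a +/+ SN oocyte and 3 in each -/- SN oocyte. The summed level of 15 markers of theca, stroma, vessels and blood was 50.9 to 83.5 CPM in +/+ and 95.1 to 161 CPM in -/- NSN oocytes, without overlap, and oocytes 29 and 30 had 112 and 122 CPM. Of these markers 10 were higher and 2 lower at NSN, the higher ones including *Acta2* (log2 fold change 3.14), *Col1a2* (2.73) and *Hbb-bs* (2.19). At SN the sums were 73.4 to 85 CPM in +/+ and 84.0 and 107 CPM in -/- oocytes, and 5 of the markers were higher and 1 lower. In +/- against +/+ oocytes, 11 granulosa markers were at least 2-fold higher and 1 lower at NSN, and 7 higher and 0 lower at SN. Of the theca, stroma, vessel and blood markers 5 were higher and 2 lower at NSN, and 9 higher and 0 lower at SN, with mean sums of 103 CPM in +/- against 71 CPM in +/+ NSN oocytes and 103 CPM against 80.2 CPM at SN. The part of these cells in the differences at either stage was not tested, and the count without oocytes 13 and 14 is no test of it.

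At the SN stage 59 members were lower and 13 higher in -/- than in +/+ oocytes (22.3% and 4.91%), whereas 5.4% of all genes were lower and 4.48% higher. The median log2 fold change was -0.25 over the members and 0.01 over all genes. Of the 161 KRAB members, 55 were lower and 5 higher, with a median of -0.63. Of the 104 members without KRAB, 4 were lower and 8 higher, with a median of 0.09. With the same -/- oocytes set against +/- oocytes, 67 members were lower and 10 higher (25.3% and 3.77%), against 5.26% and 3.29% of all genes, and 58 of the 161 KRAB members (36%) and 9 of the 104 without KRAB (8.65%) were lower. The share without KRAB was thus above that of all genes against +/- oocytes and below it against +/+ oocytes.

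**Figure D2:**
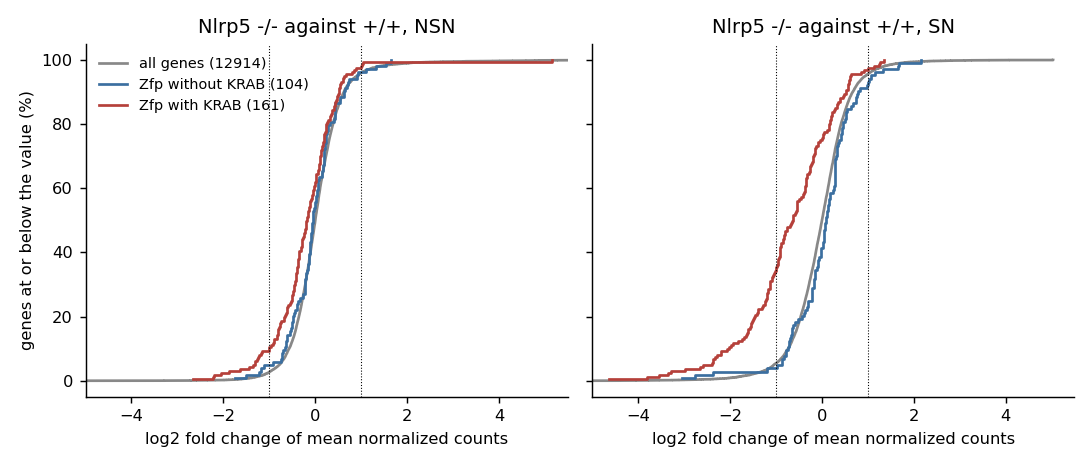
Cumulative share of genes (vertical axis, %) at or below each log2 fold change of -/- against +/+ (horizontal axis), for KRAB members, members without KRAB and all genes, at NSN and SN; dotted lines mark 2-fold. At SN the KRAB curve is displaced to lower values, with 34.2% of genes at or below -1, against 3.85% of members without KRAB and 5.4% of all genes.

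The SN result rests on 2 -/- oocytes, which were therefore also set against the +/+ mean singly. In oocyte 7, 87 members were lower (32.8%) and in oocyte 31, 55 (20.8%), against 13.2% and 6.85% of all genes. With KRAB the numbers were 77 (47.8%) and 44 (27.3%), and without KRAB 10 (9.62%) and 11 (10.6%). In single oocytes the members without KRAB thus had more lower calls than the 4 on the mean, and in oocyte 31 a larger share than all genes. Of the 59 members called on the mean, 37 were at least 2-fold lower in both oocytes, a number that was not taken for all genes. The KRAB difference was larger in oocyte 7, with a median log2 fold change of -0.90 against -0.52 in oocyte 31.

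The counts at SN were also taken within narrower sets of level, sequence sharing and finger number. Of the 172 members with at least 10 CPM, 31 were lower (18%) and 4 higher at SN, against 3.03% and 1.69% of all genes at that level, and of the KRAB members among them 27 (27.8%). Among the 133 members in the middle of the range of levels, 24 were lower (18%), against 5.23% of all genes in the same range. Of the 108 KRAB members with less than 10% of shared words, 30 were lower (27.8%, median log2 fold change -0.36), and of all 59 members with more sharing, 26 (44.1%). Over the 206 members with less sharing the median was -0.14. By finger number, 43 of 116 KRAB members with at least 10 C2H2 patterns were lower (37.1%) and 12 of 45 with fewer (26.7%). None of the 35 members with at least 10 patterns and no KRAB was lower at SN, against 5.4% of all genes. Their median log2 fold change was 0.05 and the lower quartile -0.63. Against +/- SN oocytes 2 of these 35 were lower (5.71%), against 5.26% of all genes. So few genes do not separate KRAB from finger number.

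**Figure D3:**
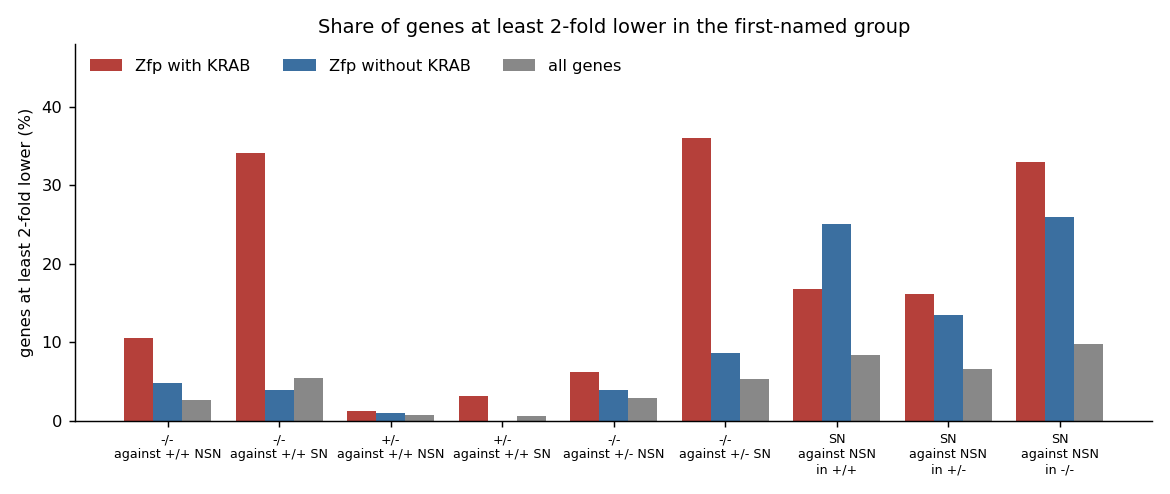
Share of genes (%) at least 2-fold lower in the first-named group of each of 9 comparisons, for KRAB members, members without KRAB and all genes. The KRAB bar stands at 34.2% for -/- against +/+ at SN and at 36% against +/- at SN, whereas for SN against NSN the members without KRAB have the higher share in +/+ oocytes (25.0% against 16.8%) and the lower one in +/- oocytes (13.5% against 16.1%).

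The 4 members without KRAB that were lower at SN were *Zfp512*, *Zfp330*, *Zfp410* and *Zfp654*, and the first 3 of these were, with *Zfp160*, the 4 members lowest relative to +/+ among those with a mean normalised count of at least 100. *Zfp512* had 13.4 and 18 normalised counts in -/- SN oocytes, against 99.2 to 180 (median 132) in +/+ and 63.5 to 225 (median 146) in +/- SN oocytes. Its log2 fold change was -3.03, and neither control group overlapped with the -/- oocytes.

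*Zfp330* (chr8:82763607-82774160, minus strand) encodes a cysteine-rich nucleolar protein in which no C2H2 pattern was found. It had 28.2 and 48.4 in -/- SN oocytes, against 194 to 350 (median 264) in +/+ and 161 to 392 (median 274) in +/- SN oocytes, a log2 fold change of -2.77. At NSN it had 310, 383, 387 and 400 in +/+ and 102, 151, 191 and 209 in -/- oocytes. In every -/- oocyte of known stage *Zfp330* lay below every +/+ and +/- oocyte of the same stage.

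*Zfp410* had 5.19 in oocyte 31 and 62.3 in oocyte 7, both below the +/+ SN range of 133 to 219 (median 176), and its log2 fold change was -2.36. *Chd4* had means of 787 in +/+ and 698 in -/- SN oocytes (log2 fold change -0.17). *Zfp654* had 243 and 663 in -/- and 478 to 1472 (median 1119) in +/+ SN oocytes, which overlapped (log2 fold change -1.20).

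Of the KRAB genes, *Zfp160* had 37.4 and 110 normalised counts in -/- SN oocytes, against 246 to 538 (median 366) in +/+ and 225 to 533 (median 370) in +/- (log2 fold change -2.37). *Zfp97* (chr17:17121415-17146831, plus strand) had 5.53 and 87.5, against 79.1 to 321 (median 211) in +/+ oocytes, with overlap and with most of its words shared (log2 fold change -2.20). *Zfp141*, lowest at NSN, had 6.92 and 24.5 in -/- SN oocytes, below the +/+ SN range of 44.7 to 102 (median 66.6), with a log2 fold change of -2.03. Without oocyte 7 the log2 fold changes at SN were -4.85 for *Zfp410*, -1.80 for *Zfp160*, -1.30 for *Zfp97* and -1.42 for *Zfp141*, and without oocyte 31 they were -1.495, -3.33, -5.06 and -3.10.

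The member with the largest difference at SN without regard to level was *Zfp758* (chr17:22361453-22377281, plus strand), with 1.38 and 6.68 normalised counts in -/- SN oocytes and 20.6 to 260 (median 107) in +/+. The 2 -/- oocytes together had 10 counts, which is 0.611 CPM (95% Poisson interval 0.293 to 1.12, counting error only), against 13.4 CPM (12.6 to 14.3) in +/+. At NSN *Zfp758* had 14.2, 48, 76.1 and 146 in -/- and 22.7, 94.2, 110 and 145 in +/+ oocytes, which overlapped.

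**Figure D4:**
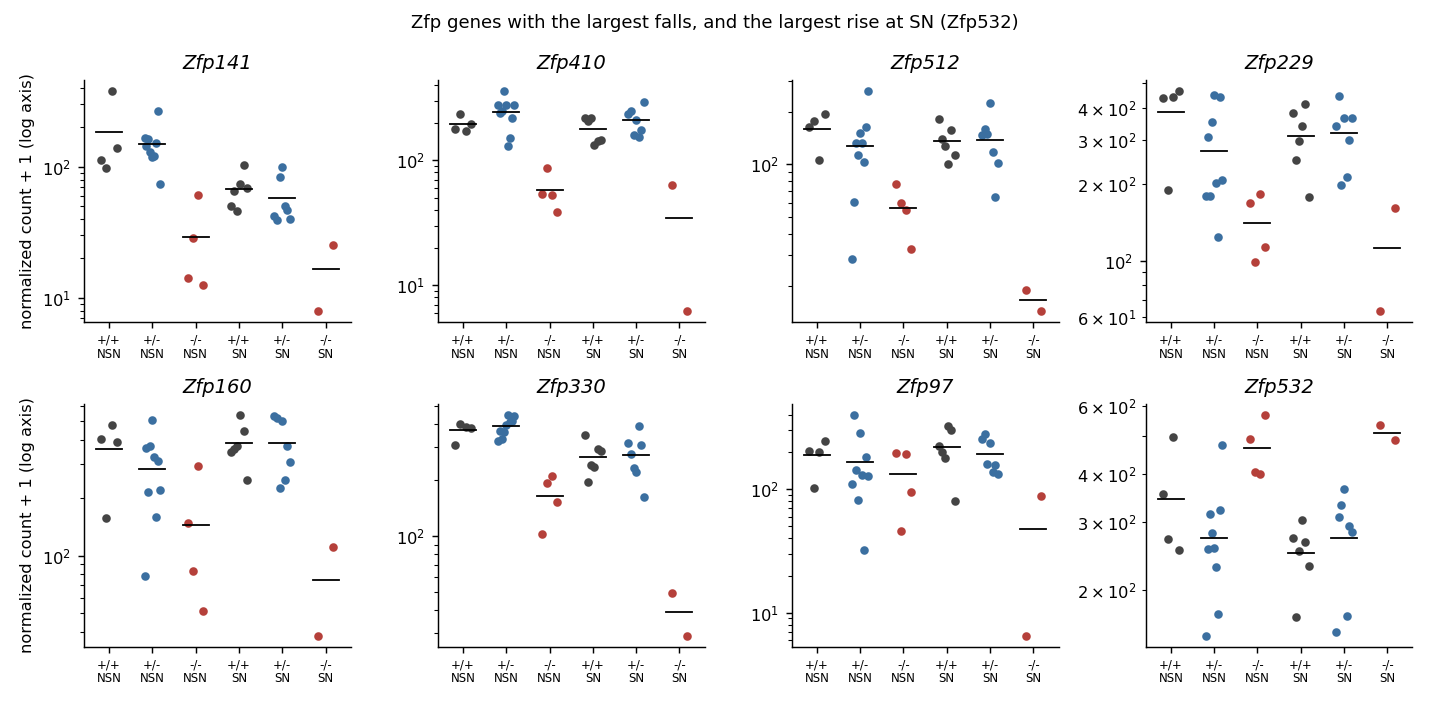
Normalised count + 1 (log axis) of named Zfp genes in each oocyte, by genotype and stage; points are oocytes. *Zfp512* lies at 13.4 and 18 in the SN -/- oocytes and at 99.2 to 180 in the SN +/+ oocytes, and *Zfp532* lies higher in the SN -/- oocytes (488 and 533, against 169 to 302).

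Of the 10 members highest per kb, *Zfp958* and *Zfp345* (log2 fold change -1.22) were lower at SN. *Zfp345* has 56.7% of its words shared, and its counts are uncertain. *Zfp958* (log2 fold change -1.45, and -0.93 without oocyte 7) had 313 and 790 normalised counts in -/- and 671 to 2228 in +/+ SN oocytes, with overlap. *Zfp979* (log2 fold change -1.65) had 488 and 548, below the +/+ range of 1055 to 2450. *Zfp709* (log2 fold change -1.68) had 148 and 314, below the +/+ range of 322 to 1121. By contrast *Zfp296* and *Zfp957* had log2 fold changes of 0.34 and 0.05.

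In the other direction, *Zfp532*, *Zfp217*, *Zfp143*, *Zfp334* and *Zfp553* were the highest in -/- SN oocytes among members with a mean normalised count of at least 100, with log2 fold changes of 1.04, 0.69, 0.64, 0.58 and 0.54. *Zfp532* had 488 and 533 in -/- and 169 to 302 in +/+ SN oocytes. *Zfp217*, a transcription factor associated with corepressors, had 356 and 507, against 200 to 321. *Zfp143*, which binds promoters, had 631 and 718, against 374 to 517. In none of these 3 genes did the -/- and +/+ oocytes overlap. The +/- SN oocytes had 396 to 771 for *Zfp143*, which held both -/- values. For *Zfp217* they had 191 to 381, above the lower -/- value. How many of all genes were without overlap was not counted. *Zfp553* had 453 and 956, against 370 to 694, and its log2 fold change was -0.10 without oocyte 7.

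The lower genes at the stages were set side by side, each stage having its own -/- and +/+ oocytes. Of the 59 members lower at SN, 48 (81.4%) had a log2 fold change below 0 at NSN, and 17 (28.8%) were also at least 2-fold lower there. Over all genes lower at SN, the shares were 79.5% and 21.2%, close to those of the members. The 17 were 77.3% of the 22 members lower at NSN, against 42.5% over all genes lower at NSN. They were *Zfp959*, *Zfp512*, *Zfp626*, *Zfp330*, *Zfp975*, *Zfp160*, *Zfp410*, *Zfp953*, *Zfp992*, *Zfp141*, *Zfp719*, *Zfp558*, *Zfp677*, *Zfp994*, *Zfp229*, *Zfp40* and *Zfp534*. The profile over the 6 group means that was most like that of *Zfp141* was that of *Zfp787* (Pearson r = 0.97), then *Zfp992* (0.97) and *Zfp719* (0.96). For *Zfp512* it was *Zfp709* (1.00), then *Zfp959* (0.99) and *Zfp760* (0.99). These correlations over 6 points share their libraries and were sought for their height.

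Heterozygous oocytes were compared with +/+ in the same way. At NSN 3 members were lower and 5 higher in +/- oocytes (1.13% and 1.89%), against 0.736% and 1.82% of all genes. At SN 5 were lower and 10 higher (1.89% and 3.77%), against 0.643% and 1.44%. Markers of granulosa, theca, stroma and blood cells were also higher in +/- oocytes, as given above, and their part in these counts was not tested. In -/- against +/- oocytes at NSN, 14 members were lower and 4 higher (5.28% and 1.51%), against 2.87% and 2.52% of all genes. The lowest members in +/- NSN oocytes, with a mean normalised count of at least 100, were *Zfp26* (log2 fold change -0.98), *Zfp235* (-0.81) and *Zfp936* (-0.73), and the highest *Zfp868* (1.09), *Zfp511* (0.80) and *Zfp775* (0.50). At SN they were *Zfp113* (-0.49), *Zfp979* (-0.44) and *Zfp708* (-0.43), and *Zfp869* (0.72), *Zfp639* (0.49) and *Zfp618* (0.48). *Zfp868* had 41.8, 51.7, 66.2 and 93.7 normalised counts in +/+ NSN oocytes and 40.4 to 343 (median 119) in +/-, which overlapped.

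Against +/- oocytes and with the same limit of 100 normalised counts, the lowest -/- members at NSN were *Zfp141* (log2 fold change -2.35), *Zfp410* (-2.06) and *Zfp330* (-1.25), and the highest *Zfp937* (1.07), *Zfp936* (0.81) and *Zfp532* (0.77). At SN the lowest were *Zfp512* (-3.05), *Zfp330* (-2.80) and *Zfp410* (-2.60), and the highest *Zfp532* (0.91), *Zfp217* (0.52) and *Zfp282* (0.50).

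Between the stages, 53 members were lower and 3 higher at SN than at NSN in +/+ oocytes (20% and 1.13%), against 8.42% and 3.38% of all genes, with a median log2 fold change of -0.25. This contrast is partly circular, since the stage was set from gene expression. In +/- oocytes 40 were lower and 1 higher (15.1% and 0.377%), against 6.58% and 1.82% of all genes. In -/- oocytes 80 were lower and 2 higher (30.2% and 0.755%), against 9.82% and 2.9%. The share lower with KRAB was 16.8% in +/+, 16.1% in +/- and 32.9% in -/- oocytes, and without KRAB 25.0%, 13.5% and 26%.

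In +/+ oocytes the members furthest below their NSN level at SN, with a mean normalised count of at least 100, were *Zfp707* (log2 fold change -3.66, itself a staging marker), *Zfp263* (-2.42), *Zfp26* (-2.38), *Zfp24* (-1.60) and *Zfp141* (-1.43, and -0.78 without oocyte 79). *Zfp263* had 168, 178, 218 and 268 normalised counts at NSN and 16.5 to 52.8 (median 37.8) at SN in +/+ oocytes, without overlap. It was also low at SN in -/- oocytes, at 36 and 52.7. With the same limit, the largest differences in the other direction were in *Zfp563* (0.91), *Zfp708* (0.88), *Zfp277* (0.84), *Zfp41* (0.64) and *Zfp748* (0.56). *Zfp277*, the most abundant of these, had 1465, 1559, 2190 and 2558 at NSN and 2703 to 4525 (median 3466) at SN in +/+ oocytes. *Zfp563* and *Zfp748*, both with KRAB, were by contrast lower in -/- than in +/+ SN oocytes (-1.16 and -1.04).

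Members with a role known from earlier work were listed apart, 28 of the 29 in the list being members. Of these, 4 were lower and none higher at NSN, and 4 were lower and 2 higher at SN in -/- than in +/+ oocytes (14.3% lower at both stages). Over all genes 2.69% were lower at NSN, and 5.4% lower and 4.48% higher at SN. The list was chosen with earlier results of these data known. *Zfp410*, *Zfp512* and *Zfp330*, described above, were among its lower genes at both stages, so the counts are no separate result. *Zfp445*, which helps to keep imprinted methylation, had a log2 fold change of 0.15 at NSN and -0.79 at SN, where it had 134 and 205 normalised counts in -/- and 214 to 374 (median 301) in +/+ oocytes. *Zfp568*, a repressor of a placental *Igf2* promoter, had -0.16 and -0.35. *Zfp809*, which silences murine leukaemia proviruses, had -0.84 and -1.02, with 8.16 and 23.5 in -/- and 11.3 to 49.4 in +/+ SN oocytes, overlapping. These 3 are KRAB genes.

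*Zfp42* (REX1), a marker of pluripotent cells, was lower at NSN, with 12.9, 17, 28.9 and 30.9 in +/+ and 2.03, 8.09, 9.23 and 17 in -/- oocytes (log2 fold change -1.22), and it was close to 0 at SN in both. *Zfp281*, also of pluripotent cells, had log2 fold changes of -0.32 and 0.29. *Zfp622*, a factor of ribosome assembly, had -0.21 and 0.75, and *Zfp207*, which binds spindle microtubules, had -0.02 and -0.42. *Zfp638*, which silences unintegrated retroviral DNA, had -0.22 and -0.64. The members higher at SN in this list were *Zfp609* (1.06) and *Zfp326* (1.02, and -1.99 without oocyte 31). The 5 staging markers had a median log2 fold change of 0.56 at NSN and 0.75 at SN, and only *Zfp622* at NSN was below 0.

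Genes of the machinery that KRAB proteins recruit and of linked silencing factors were read from a list of 20. None was lower and 1 was higher at NSN, against 2.69% and 3.97% of all genes. At SN 1 (5%) was lower, *Resf1* (log2 fold change -1.05), and 1 was higher, *Ehmt2* (1.95), against 5.4% and 4.48% of all genes. *Trim28* had -0.14 at NSN and 0.52 at SN, and *Setdb1* 0.00 and 0.03. *Mphosph8*, of the HUSH complex, had -0.17 and -0.76. Among other zinc finger families, 3 of 29 *Zbtb* genes, 2 of 9 *Zscan* genes, 1 of 8 *Zkscan* genes and 0 of 7 *Klf* genes were lower at SN, against 5.4% of all genes.

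Along the genome, the members lay on 20 chromosomes, with 68 on chromosome 7, 31 on chromosome 17 and 21 on chromosome 8. With neighbouring Zfp genes joined where their starts were at most 1 Mb apart, and at least 5 genes required, there were 18 clusters on 9 chromosomes, which held 135 members. At SN, 39 of 110 KRAB members in clusters (35.5%) and 16 of 51 outside clusters (31.4%) were lower in -/- than in +/+ oocytes, against 5.4% of all genes. None of the 25 members without KRAB in clusters was lower at SN. Lower genes were thus about as frequent outside as inside clusters once KRAB members were taken by themselves, but the clusters differed among themselves.

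The cluster on chromosome 17 from *Zfp160* to *Zfp13* (chr17:21008903-23599487) had 23 Zfp genes, 17 of them members, and all 17 with KRAB. Of these, 5 were lower at NSN (2.69% over all genes) and 14 at SN (5.4% over all genes), and the median log2 fold changes were -0.67 and -1.53. The summed mean normalised counts were 3201 in +/+ and 1984 in -/- at NSN. At SN they were 3235 in +/+, 3220 in +/- and 1176 in -/- oocytes. *Zfp758* (-4.63), *Zfp945* (-3.55), *Zfp820* (-2.59), *Zfp160* (-2.37), *Zfp760* (-2.36) and *Zfp53* (-2.32) had the largest differences at SN. *Zfp945* had a mean of only 2.03 CPM over all oocytes, and its value is uncertain. *Zfp942* (-0.93) and *Zfp946* (-0.90) were short of 2-fold, and *Zfp213*, near its end, was the single member above 0 at SN (0.85), with few counts. The number lower at SN was 10 without oocyte 7 and 16 without oocyte 31.

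The cluster on chromosome 4 from *Zfp990* to *Zfp933* (chr4:145510759-147848366) had 9 members, all with KRAB, 7 of which were lower at SN, against the same 5.4% of all genes, with a median log2 fold change of -1.19. Its summed level was 2875 in +/+ and 1119 in -/- SN oocytes, and *Zfp992* (-2.05) and *Zfp979* (-1.65) had the largest differences. In 6 of the 9, over 50% of the words are shared with other genes, and their counts are uncertain. On chromosome 13 from *Zfp712* to *Zfp273* (chr13:67038596-67827002), 5 of 10 members were lower at SN (median -1.003), *Zfp595* (-3.28) most of all. On chromosome 7 from *Zfp788* to *Zfp819* (chr7:41633203-43618285), the cluster of *Zfp141*, 3 of 8 members were lower at NSN and 5 at SN (median -1.36), against 2.69% and 5.4% of all genes.

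Of the 18 clusters, 10 had a lower member at SN, the cluster from *Zfp551* only through *Zfp446*, and 6 had one at NSN. On chromosome 17 from *Zfp871* to *Zfp414* (chr17:32765496-33631779), 3 of 8 members were lower at SN (median -0.43). The clusters from *Zfp60* (1 of 2 members lower, median -1.93), *Zfp551* (1 of 5, -0.65), *Zfp653* (1 of 3, -0.53) and *Zfp930* (1 of 6, -0.51) also had medians under -0.5. Of the 14 members of the cluster on chromosome 7 from *Zfp84* to *Zfp146* (chr7:29768552-30169750), 11 of them with KRAB, none was lower and 1 was higher at SN, with a median of -0.15. Of the 7 members from *Zfp786* to *Zfp775* on chromosome 6 (chr6:47819266-48623227), 5 with KRAB, none was lower at either stage, and the medians were 0.47 at NSN and 0.33 at SN. The lowest members of other clusters included *Zfp626* (-2.96), *Zfp930* (-1.23), *Zfp763* (-1.18) and *Zfp970* (-1.12, with 71.4% of its words shared) at SN. *Zfp626*, 1 of the 2 members of the cluster from *Zfp60*, had a mean of only 24.8 normalised counts over all oocytes. *Zfp446* was at 0 in both -/- SN oocytes and in 3 of the 6 +/+ SN oocytes, with a mean of 1.96 normalised counts in +/+, too few for a fold change to be given. It is nevertheless counted among the 59 members lower at SN.

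**Figure D5:**
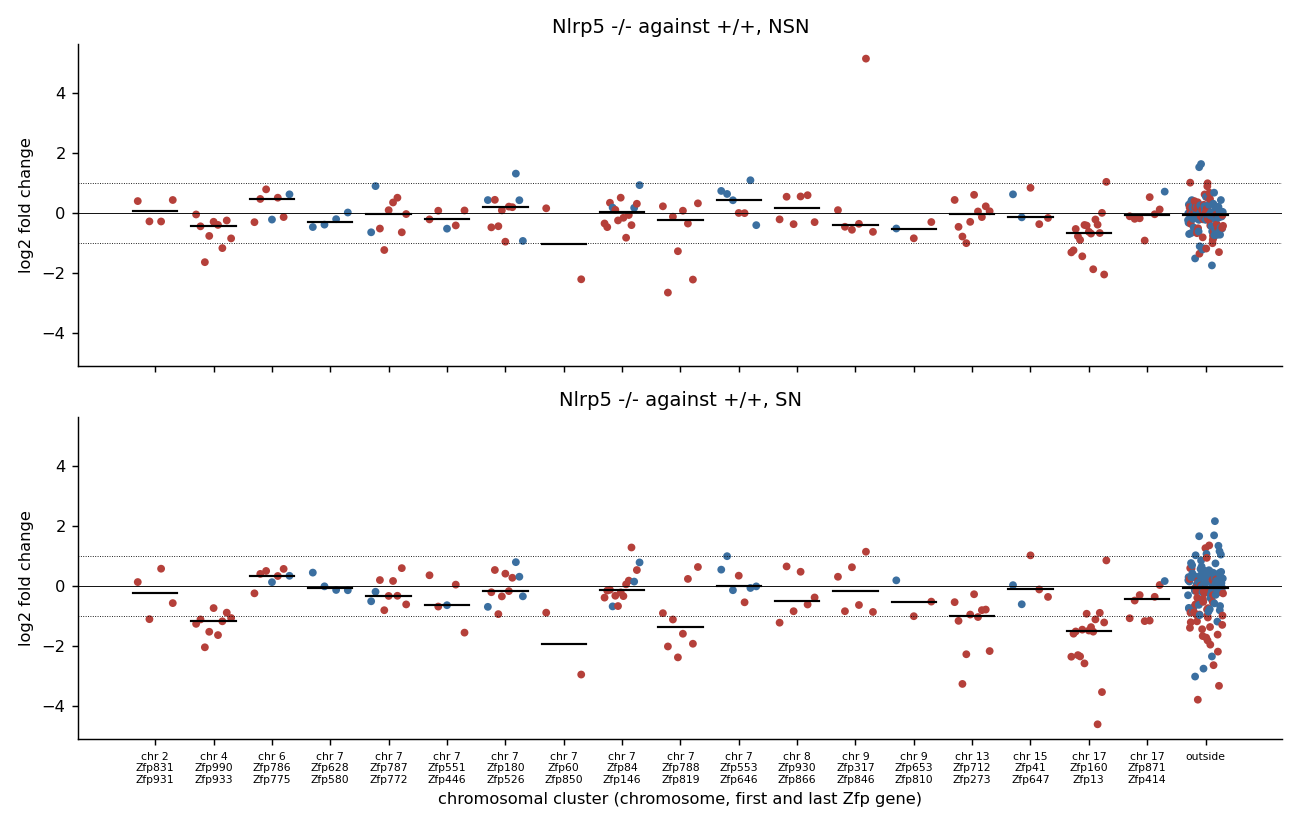
Log2 fold change of -/- against +/+ (vertical axis) of each member in the 18 chromosomal clusters and outside them, at NSN (top) and SN (bottom); red points are KRAB members, blue points members without KRAB, black bars medians and dotted lines 2-fold. At SN the chromosome 17 cluster from *Zfp160* has a median of -1.53 and the chromosome 6 cluster from *Zfp786* one of 0.33.

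The promoters of the members, taken as 250 bases before to 50 bases after the RefSeq start (GRCm38.p6) and found for 220 of 265, differed with KRAB. Where a gene had several starts, its highest CpG number and its highest GC content were taken, each by itself. The median number of CpG dinucleotides was 11 for the 143 KRAB members and 24 for the 77 others, and 22 over 9696 genes. The median GC content was 53.3% with KRAB and 62.7% without. The 49 members lower at SN with a promoter found had a median of 9 CpG dinucleotides and the 171 others 17. This difference is in the direction of that between KRAB and other members.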

How the data were processed

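The RNA of single germinal vesicle oocytes was separated from DNA, amplified by Smart-seq2 and sequenced without molecular identifiers. The authors used Trim Galore for trimming and HISAT2 for alignment, and deposited raw counts of reads per gene, with GRCm38 coordinates, although the methods name GRCm39. They left out libraries under 4000000 reads. Treatment of reads that match several genes is not given in the sources used here. A second deposited table holds 1 count of reads per library and was not used. Further tables hold the fold changes and adjusted p-values of the authors' own comparisons, and were not used either. DNA methylation and protein data were not analysed here.

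Of 35373 entries, 52 repeats were left out and 35321 genes kept. Counts were divided by median-of-ratios size factors over the 33 oocytes and averaged per genotype and stage, and log2 fold changes of means + 1 were taken for all genes. Genotype is from the labels, and stage from the study's staging heatmap and principal components. The labels name no mouse, so no test was run. Members and gene lists were chosen with earlier results of these data known. Genes named are the 5 lowest and 5 highest relative to the control (3 for comparisons with +/-) with a mean normalised count of at least 100, of 163 such members at NSN and 143 at SN, the highest per kb, those in the lists, those nearest the limit, the lowest of each cluster at each stage, and the 3 profiles nearest to the lowest gene of each stage.

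KRAB domains were sought with a profile built by pyhmmer 0.12.3 from 127 windows of 36 residues in translated GENCODE M39 transcripts (E-value 0.001), and C2H2 fingers by pattern. Simulated folds of 1.5 on the log2 scale, up and down, were recovered in 94% or more of 50 genes each. These were drawn from the 8526 genes (NSN) and 8224 genes (SN) with a +/+ mean of at least 100 normalised counts. The recovery does not cover members below that level. Alternatives were total-count and TMM scaling, size factors within the comparison, medians, pooled sums, a pseudocount of 5, other limits on level, sets of oocytes left out, and removal of members in the staging list or sharing 10% or more of their words (the last chosen after the data were seen). Other software was Biopython 1.88, matplotlib 3.10.9, scipy 1.17.1, pandas 2.3.3 and numpy 2.4.6 in Python 3.11.15. Intervals are 95% and cover counting error only.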

Additional observations from a re-analysis of the deposited data

Results flagged for a closer look

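Of 115 checks of single groups (19 named genes and 4 measures), 8 had a sample far from the others of its group, and chance alone flags about 1 in 20. The number of members with a count was 265 in +/+ NSN oocyte 70, where the other oocytes of the group had 264. It was 237 in +/- NSN oocyte 61, the nearest of the others having 261, and this oocyte lies at the edge of its stage. It was 257 in +/- SN oocyte 46, next to 261.

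*Zfp141* had 380 normalised counts in +/+ NSN oocyte 79, far above the next oocyte at 138, and 264 in +/- NSN oocyte 45, next to 165. *Zfp229* had 189 in +/+ NSN oocyte 87, far below the next at 436. *Zfp334* had 729 in -/- NSN oocyte 13, below the next at 929, and *Zfp937* had 157 in +/+ SN oocyte 69, above the next at 59.9.

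Relative to +/+ oocytes, *Zfp26* moved in opposite directions at the stages. In both -/- SN oocytes it lay above the +/+ SN mean (log2 fold change 0.62), and in all 4 -/- NSN oocytes below the +/+ NSN mean (-0.56). This difference between the stages was not tested. Against +/- oocytes the -/- mean of *Zfp26* was higher at both stages (145 against 108 at NSN, 62.2 against 44.9 at SN). The -/- SN values, 54 and 70.5, also lay within the +/+ SN range of 10.4 to 87.8.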

How the results depend on the processing

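No paired analysis was possible because the labels give no replicate numbers that groups share. No member median moved beyond the spread, except that of -/- against +/- SN when oocytes were left out. Medians near 0 changed sign: that of +/- against +/+ SN (0.03) fell as far as -0.01, and that of -/- against +/- NSN (0.03) as far as -0.04, without oocyte 29. Of 700 fold changes of named genes, 221 changed sign under some alternative, 7 of them at least 0.5 in size, among them *Zfp553* and *Zfp326* at SN. The counts depend most on the limit on level and on oocyte 7 or 31. In the order lower then higher, members past 2-fold at a mean of at least 10 CPM were 6 and 1 (KRAB lower 3) for -/- against +/+ NSN, 31 and 4 (KRAB lower 27) at SN, 0 and 1 for +/- against +/+ NSN, 0 and 1 at SN, 4 and 1 for -/- against +/- NSN, 38 and 1 at SN, and 18 and 0 for the stages in +/+. With no limit they were 34 and 36 (KRAB lower 27) for -/- against +/+ NSN, 25 higher at SN, 14 and 25 for +/- against +/+ NSN, 19 and 20 at SN, 23 and 26 for -/- against +/- NSN, 25 higher at SN, and 15 higher for the stages. At 1 CPM the higher counts were 12 for -/- against +/+ NSN, 9 for +/- against +/+ NSN, 8 for -/- against +/- NSN and 5 for the stages. Here fewer or more genes are counted by construction.

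Without members sharing 10% or more of their words, lower members were 13 (KRAB 9) for -/- against +/+ NSN, 33 (KRAB 30) at SN, 8 for -/- against +/- NSN and 38 at SN, and 3 were higher for +/- against +/+ NSN. Medians over oocytes gave 4 higher for -/- against +/+ NSN, and 11 lower and 3 higher for +/- against +/+ NSN. A pseudocount of 5 gave 4 higher for -/- against +/+ NSN, 0 lower for +/- against +/+ NSN, and 2 lower and 4 higher at SN. Pooled sums gave 1 lower for +/- against +/+ NSN. Without oocytes 55 and 61, 3 and 6 were higher for +/- against +/+ at NSN and SN and 2 for -/- against +/- NSN. Without oocytes 13 and 14, 4 were higher for -/- against +/+ NSN. The cause was not tested.

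Leaving out each oocyte gave 18 to 30 lower and 6 to 11 higher for -/- against +/+ NSN (KRAB lower 14 to 25, without KRAB 3 to 9), 55 (without oocyte 7) to 87 (without oocyte 31) lower and 10 to 13 higher at SN (KRAB 44 to 77, without KRAB 4 to 11), 1 to 7 lower and 3 to 6 higher for +/- against +/+ NSN, 3 to 7 and 6 to 13 at SN, 13 to 22 and 2 to 5 for -/- against +/- NSN, 49 to 94 and 8 to 13 at SN (median -0.47 to -0.26), and 46 to 61 and 3 to 7 for the stages. The medians for -/- against +/+ ranged from -0.15 to -0.06 at NSN and from -0.37 to -0.24 at SN. That of +/- against +/+ NSN ranged from -0.19 (without oocyte 87) to -0.04 (without oocyte 79). Scaling by the total count moved the median of all genes by up to 0.106, in the stage comparison. The comparisons are limited by 2 SN -/- oocytes and unnamed mice, and for members near 2 CPM by low counts.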

Other observations

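The -/- oocyte 15, for which no stage is given, held 1905 CPM on the granulosa cell markers and 15794 CPM on the oocyte markers. Its members took 0.787% of the counts, the mean of log2(normalised count + 1) being 6.03 over KRAB members and 7.68 over those without KRAB. It had 38.8 normalised counts of *Zfp141*, 177 of *Zfp410*, 89.6 of *Zfp512*, 138 of *Zfp330*, 63.8 of *Zfp160*, 63.8 of *Zfp229*, 17.2 of *Zfp97* and 9.48 of *Zfp758*. Its *Zfp410* and *Zfp512* values thus lie above those of all staged -/- oocytes.

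*Zfp395* was at 0 in all 6 +/+ SN oocytes, and *Zfp446* in both -/- SN oocytes and 3 of the 6 +/+ SN oocytes.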
